A study of Mus musculus with 10 samples.

Results

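The comparison described here is between mouse skin cells that express SmoM2 with and without a loss of Survivin, the product of Birc5. It set 2 libraries of Krt14-CREER/Rosa-SmoM2/Survivin LOF cells (LOF, loss of function) against 2 libraries of Krt14-CREER/Rosa-SmoM2 cells with intact Survivin. Both groups carried the label 6w TAM, which gives 6 weeks and an agent whose abbreviation the labels do not spell out. These 4 libraries are part of a series of 10, in 5 groups of 2. The other 6 came from Krt14-CREER/Rosa-SmoM2, Inv-CREER/Rosa-SmoM2 and Inv-CREER/Rosa-SmoM2/Krt14rtTA/Survivin-GOF skin at 8 weeks. The series asks what Survivin does when basal cell carcinoma forms. A gene entered if 2 or more of the 4 libraries had it at 10 or above, which kept 19096 of 49671 genes.

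CREER is a Cre recombinase that acts after a drug binds it, and here the Krt14 promoter limits it to basal keratinocytes of the epidermis and hair follicle. The labels give epithelial cells of the skin epidermis, collected by flow cytometry, and the design text says that SmoM2-YFP-expressing cells were isolated. Since every library carries CREER and SmoM2 in its label, the comparison has no control group without SmoM2. The labels do not give the animals' ages or say which part of Birc5 the LOF allele removes. They also do not say whether the libraries compared came from separate or pooled animals. The library names of the Inv-CREER/Rosa-SmoM2 group, which enter the estimate of spread, contain the word pool. The p-values therefore measure the spread between the libraries of the series, which may be technical.

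Survivin works in mitosis as part of the chromosomal passenger complex, which places the kinase Aurora B on centromeres and then on the spindle midzone, and it also belongs to the inhibitor of apoptosis family. Smoothened is the transducer of Hedgehog signals. SmoM2 is its constantly active form, which drives Gli transcription factors without ligand and in mouse skin can produce growths resembling basal cell carcinoma, with features of the embryonic hair follicle.

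Values are normalized counts, that is gene counts that the authors scaled to a common total in every library, and pairs of values are given as replicate 1 and replicate 2. The 4 libraries rested on 7744620 to 8870758 reads, and the detection floor of 3 reads corresponded to normalized counts of 6.76 to 7.75. Mitochondrial transcripts made up 2.14% to 2.39% of each library. Log2 values of replicates correlated across genes at 0.978 within LOF and 0.977 within Survivin-intact cells, and at 0.902 to 0.920 between the groups. Changes are LOF minus Survivin-intact differences of log2(value + 1), with their standard error (SE) and a limma p adjusted over all 19096 genes, for 2 libraries a group. An exact permutation test of 2 against 2 libraries cannot go below p = 0.333. The basal keratin gene Krt14 was abundant in all 4 libraries, at 82688 and 84983 in Survivin-intact cells and 77310 and 66103 in LOF (log2 change -0.23, SE 0.15, not past the test), and Krt5 was likewise high.

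Birc5 transcripts were lower in LOF without being lost. Survivin-intact cells held 961 and 1103 and LOF cells 382 and 429 (log2 change -1.34, SE 0.28, adjusted p = 0.00423). Both LOF libraries lay under both Survivin-intact libraries. Counts over the whole gene do not show whether the remaining transcripts are intact. Of the 6 nearest tested genes on chromosome 11, Socs3 (-1.96) and Pgs1 (-0.43) fell, though each call was lost without any 1 of the 4 libraries (-2.15 to -1.76, adjusted p 0.0878 to 0.14 for Socs3, -0.49 to -0.37, adjusted p 0.0913 to 0.177 for Pgs1), and Tk1 (-0.37), Tha1 (1.51), Afmid (0.64) and Gm20708 (-0.64) did not pass. Within 1 Mb on either side 22.6% of 31 tested genes changed, a share below the 35.9% of all 19096 tested genes.

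The labels do not mention sex, and transcripts tied to it separated the groups. Xist, the RNA that coats the inactive X chromosome of female cells, stood at 94 and 57 in Survivin-intact cells and at 30024 and 59594 in LOF (log2 change 9.15, SE 0.74, adjusted p = 1.66e-05). Summed values of the Y-linked genes Ddx3y, Kdm5d, Uty and Eif2s3y were 5675 and 5724 in Survivin-intact cells and 3718 and 2445 in LOF. The LOF libraries thus held Xist and Y-linked transcripts together, while the Survivin-intact libraries held Y-linked transcripts with little Xist. None of the 4 Y-linked genes passed alone (Ddx3y, log2 change -1.12, SE 0.41, adjusted p = 0.0557). Survivin loss and this difference cannot be told apart by the design. A fit with each library's log2 Xist value as a covariate gave 1054 changed genes in place of 6854. Its slope on Xist rests only on differences between the 2 libraries of a group, largest in the Survivin-GOF pair (Xist 7589 and 56185). That slope is then carried over the wider gap between LOF and Survivin-intact cells. Ddx3y, lower in LOF, had a change of 3.52 in that fit. The fit therefore cannot decide what Survivin loss did apart from Xist. It kept 658 of the original calls with the same sign and turned the sign of 1307 estimates, while the median SE of the called genes went from 0.195 to 0.675. The Birc5 change in that fit was -3.91 (limma adjusted p = 0.0178). In the Survivin-GOF pair Birc5 (7277 and 16384) was higher in the library with more Xist. The value of -3.91 thus depends on the gain libraries, and nothing about LOF is concluded from it. Of 75 lists with a tested gene, 29 had a median on the other side of 0 in that fit.

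**Figure D1:**
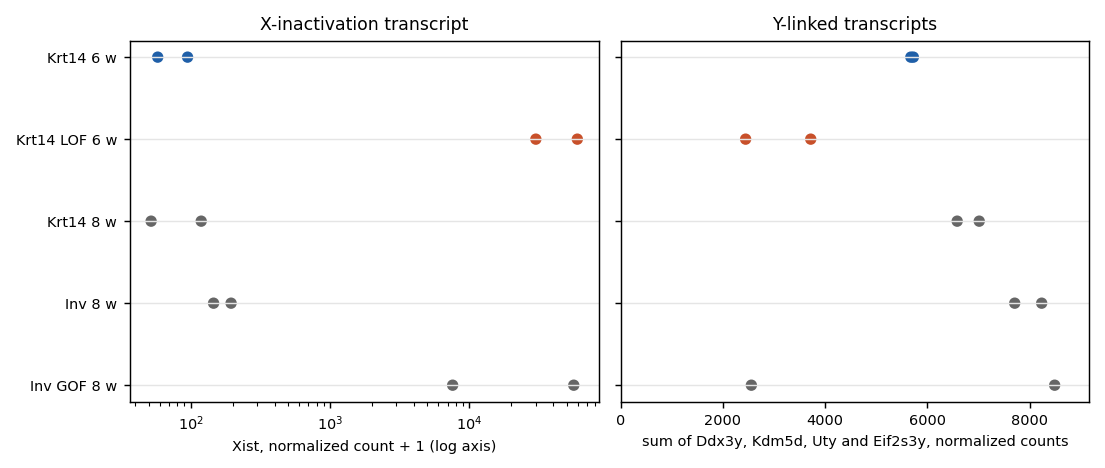
Xist (left, normalized count plus 1 on a log axis) and the sum of 4 Y-linked genes (right, normalized counts) in each of the 10 libraries, 1 point a library. The 2 LOF libraries have 30024 and 59594 for Xist and lower Y-linked sums (3718 and 2445) than the 2 Survivin-intact libraries at 6 weeks (5675 and 5724).

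Over all tested genes, 6854 changed (35.9%): 4292 rose (22.5%) and 2562 fell (13.4%). The groups did not overlap for 13752 genes (72.0%). Counts of list members that rose or fell have to be read against 22.5% and 13.4%. Changes of at least 2-fold numbered 3307, and 345 rises and 267 falls were at least 8-fold. Protein-coding genes changed in 41.8% of cases, long intergenic RNAs in 32.9% and processed pseudogenes in 13.3%. The tested genes had a median log2 change of 0.15, so list medians have to be read against that value. Rescaling by the median of ratios brought it to 0.01 and brought the share of changed genes that were higher from 62.6% to 48.6%. Leaving out 1 library lowered the number of changed genes to 5295 (without Survivin-intact replicate 1), 3879 (replicate 2), 4822 (without LOF replicate 1) or 3999 (LOF replicate 2).

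**Figure D2:**
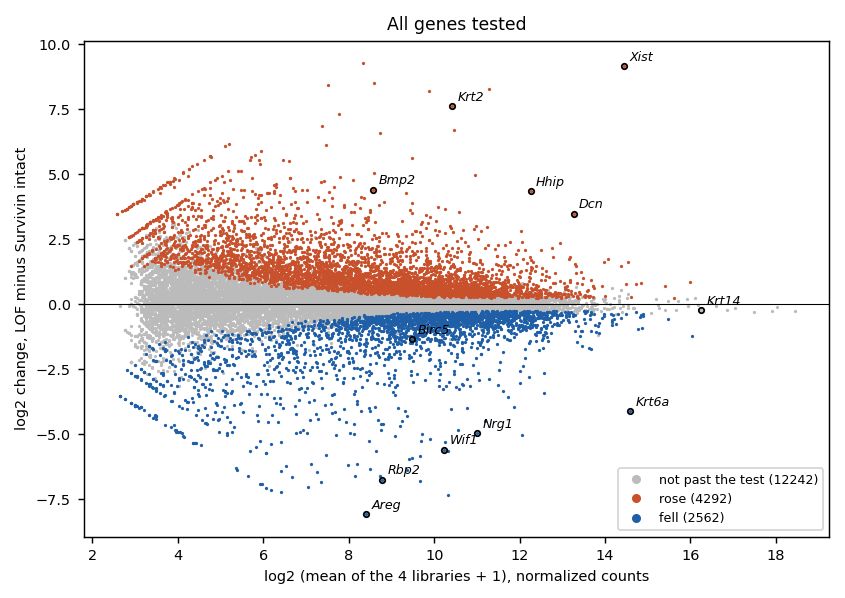
Log2 change in LOF (vertical) against log2 of the mean normalized count of the 4 libraries plus 1 (horizontal), 1 point for each of the 19096 genes, orange for the 4292 that rose, blue for the 2562 that fell and grey for the others. Large changes are seen at low and high levels, among them Xist (9.15) upward and Areg (-8.06) downward, with Krt14 at -0.23.

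**Figure D3:**
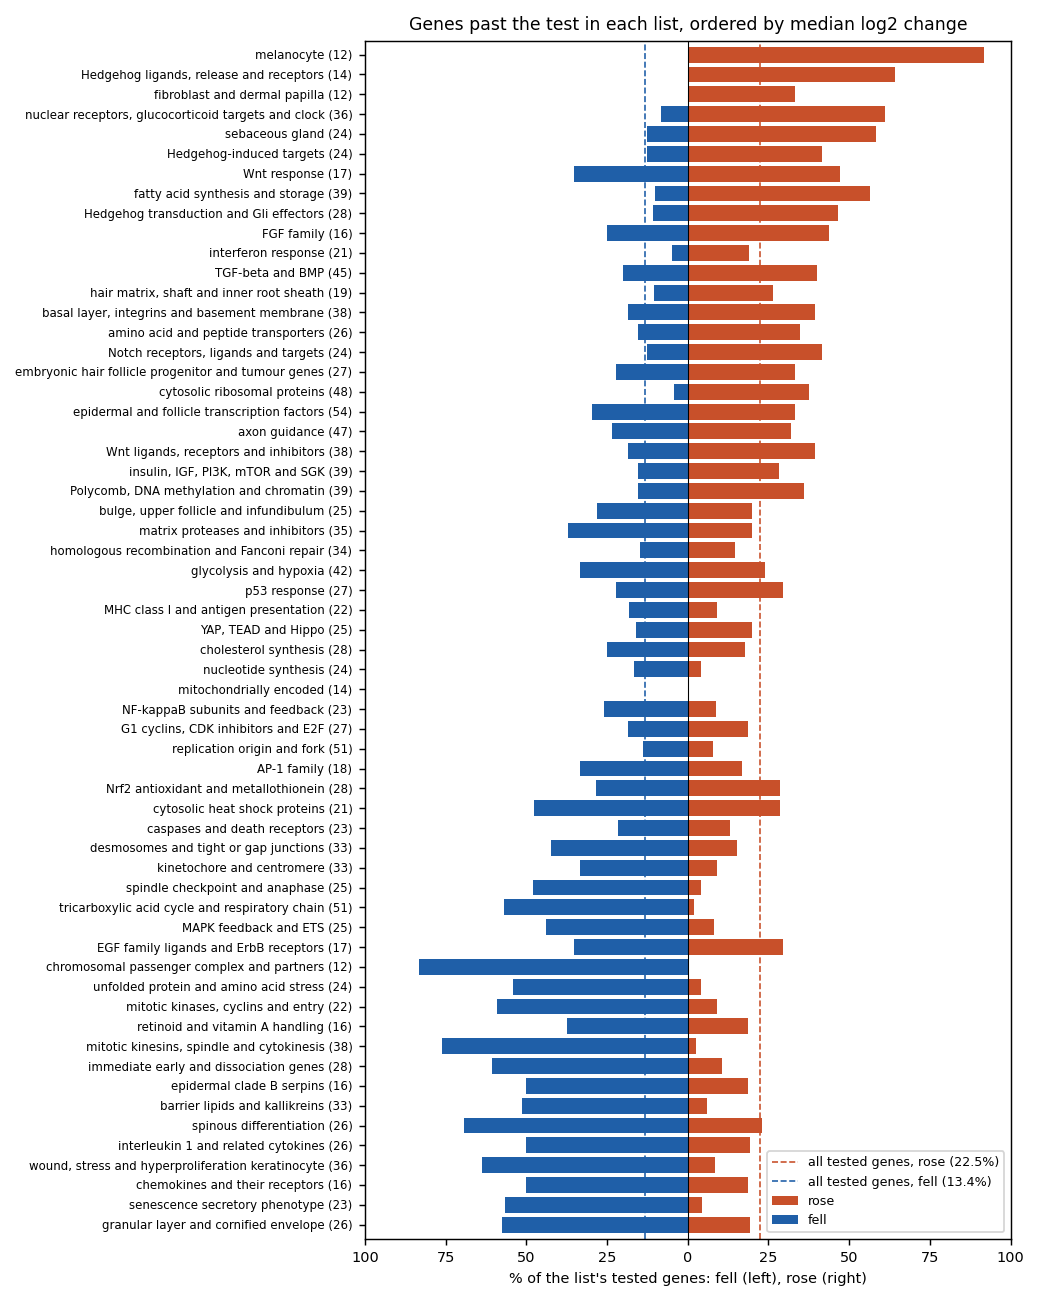
For each list of at least 12 tested genes, the percent that rose (right, orange) and fell (left, blue), ordered by the list's median log2 change, with dashed lines at the 22.5% and 13.4% of all tested genes. The melanocyte, Hedgehog receptor, fibroblast and nuclear receptor lists are at the top. The cornified envelope, senescence secretory, chemokine, wound and cytokine lists are at the bottom.

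Genes of chromosome segregation were lower in LOF. Of the 12 genes of the chromosomal passenger list, which includes Birc5, 10 fell and 0 rose (median log2 change -0.51). Of 38 genes for mitotic kinesins, spindle and cytokinesis 29 fell and 1 rose (-0.66), of 22 for mitotic kinases and entry 13 fell and 2 rose (-0.53), and of 25 for the spindle checkpoint and anaphase 12 fell and 1 rose (-0.33). Each share that fell stands well above the 13.4% of all genes. Without Survivin-intact replicate 1, or without LOF replicate 2, only 6 passenger genes fell. With the Xist covariate 1 passenger gene and 1 spindle gene fell, and the checkpoint list had a median of -0.00.

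The partners of Survivin in the passenger complex had smaller changes than Birc5. Aurkb, the kinase of the complex, stood at 939 and 920 in Survivin-intact cells and 647 and 645 in LOF (log2 change -0.52, SE 0.11). Cdca8, the subunit Borealin, stood at 1617 and 1661 and 930 and 945 (log2 change -0.81, SE 0.10, adjusted p = 0.0002), and Incenp, the scaffold, at 2683 and 2671 and 1911 and 1872 (log2 change -0.50, SE 0.09). No LOF value reached a Survivin-intact value in these genes. Bub1, a kinase that marks the centromere for the complex, fell too (-0.97). Kif20a, the kinesin that carries the complex to the midzone, had 2064 and 2190 and 1809 and 1838 and did not pass (-0.22).

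At the kinetochore, where chromosomes meet spindle fibres, 11 of 33 genes fell and 3 rose (median -0.30; 0.06 with the Xist covariate). Nuf2, of the microtubule-binding Ndc80 complex, stood at 1023 and 1039 in Survivin-intact cells and 442 and 497 in LOF (log2 change -1.14, SE 0.16, adjusted p = 0.000523). The Ska complex genes Ska1 (-1.40) and Ska3 (-1.25) fell, and Cenpo, of the inner kinetochore, rose (0.68). Hjurp, the chaperone that loads the centromeric histone Cenpa, rose from 2050 and 2128 to 3041 and 3630 (log2 change 0.67, SE 0.12), whereas Cenpa itself fell (-0.99). The list therefore moved in both directions. Among regulators of mitotic entry, Cdc25b, a phosphatase that activates Cdk1, stood at 2224 and 2660 and 1011 and 932 (log2 change -1.32, SE 0.11), and Wee1, the kinase that inhibits Cdk1, at 1601 and 1201 and 2894 and 3069 (log2 change 1.10, SE 0.13). The activator fell and the inhibitor rose, with no overlap between groups for either.

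Promoters were searched for the cell cycle homology region, TTTGAA, a short element known from genes transcribed late in the cell cycle. RefSeq promoters (GRCm38.p6, 300 bases, from 250 before to 50 after each start) were matched by symbol for 11314 of the 19096 tested genes. The 6 letters occurred on either strand in 30 of 38 promoters (78.9%) of the kinesin, spindle and cytokinesis list in 8 of 16 (50%) of the mitotic kinase list and in 1 of 5 (20%) of the passenger list, against 12.5% of promoters of all tested genes and 17.9% of the whole table. Promoters of all genes that fell held it in 14.1% of cases and those of genes that rose in 12.5%. Windows of 3 genes, picked after their values were seen because the match lies just past the annotated start, are written 5′ to 3′ with the match in capitals: Cdca8 (chr4:124936868-124937167, minus strand), Plk1 (chr7:122159185-122159484, plus strand) and Aspm (chr1:139454523-139454822, plus strand).
Cdca8: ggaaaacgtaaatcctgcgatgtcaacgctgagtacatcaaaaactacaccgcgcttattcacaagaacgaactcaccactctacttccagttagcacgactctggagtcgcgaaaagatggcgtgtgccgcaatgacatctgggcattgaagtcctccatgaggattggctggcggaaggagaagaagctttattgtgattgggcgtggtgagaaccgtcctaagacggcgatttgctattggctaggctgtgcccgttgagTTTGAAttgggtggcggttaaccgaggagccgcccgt
Plk1: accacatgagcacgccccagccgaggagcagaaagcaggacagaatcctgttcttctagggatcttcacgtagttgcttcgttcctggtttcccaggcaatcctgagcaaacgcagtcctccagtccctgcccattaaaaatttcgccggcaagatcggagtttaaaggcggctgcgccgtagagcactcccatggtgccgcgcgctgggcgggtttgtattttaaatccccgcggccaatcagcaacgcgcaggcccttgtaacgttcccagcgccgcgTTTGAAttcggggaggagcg
Aspm: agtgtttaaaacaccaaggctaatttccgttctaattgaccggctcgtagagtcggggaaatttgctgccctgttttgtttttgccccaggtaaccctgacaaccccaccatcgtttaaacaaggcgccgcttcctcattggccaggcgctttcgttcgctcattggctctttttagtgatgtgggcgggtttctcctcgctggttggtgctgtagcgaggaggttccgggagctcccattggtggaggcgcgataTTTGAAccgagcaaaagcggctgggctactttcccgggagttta
Plk1, a kinase of mitotic entry, stood at 1047 and 1152 in Survivin-intact cells and 543 and 438 in LOF. Aspm, a spindle pole protein gene, stood at 3545 and 3394 and 2451 and 2499 (log2 change -0.49, SE 0.12; call lost without Survivin-intact replicate 1, LOF replicate 1 or LOF replicate 2, -0.50 to -0.46, adjusted p 0.0514 to 0.0599). A match is a description of letters and not evidence of binding.

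Most genes of DNA replication did not pass. Of 51 genes for origins and forks 7 fell and 4 rose (median -0.19; 0.31 with the Xist covariate). These counts depended on the scaling, as 2 rose and 20 fell with median-of-ratios scaling, where 3529 of all 19096 genes fell, and 1 rose without Survivin-intact replicate 2, LOF replicate 1 or LOF replicate 2. Mcm10, which links helicase and polymerase, stood at 712 and 682 in Survivin-intact cells and 290 and 341 in LOF (log2 change -1.15, SE 0.15). Orc5, a subunit of the origin recognition complex, stood at 488 and 486 and 875 and 821 (log2 change 0.80, SE 0.19; call lost without LOF replicate 1, 0.75, adjusted p = 0.051). These members went opposite ways. Nucleotide synthesis genes had 4 falls and 1 rise among 24 members (median -0.12; 1.12 with the Xist covariate). Of 34 homologous recombination and Fanconi repair genes 5 rose and 5 fell, 14.7% each way (median -0.02, and 0.45 with the Xist covariate). Over all tested genes 22.5% rose and 13.4% fell, so the rises were below that share and the falls near it. With median-of-ratios scaling 5 repair genes rose and 10 fell. Xrcc3, a recombination protein, rose from 158 and 117 to 531 and 431 (log2 change 1.81, SE 0.20, adjusted p = 9.59e-05), Brca2 rose (0.78) and the nuclease subunit Eme1 fell (-0.81). Only 2 repair genes rose and 1 fell without Survivin-intact replicate 2.

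Some brakes on the cell cycle rose. Cdkn1b, the CDK inhibitor p27, stood at 1756 and 1524 in Survivin-intact cells and 3145 and 3096 in LOF (log2 change 0.93, SE 0.12, adjusted p = 0.000284). The pocket protein Rbl2 (1.04) and the inhibitor Cdkn1c (10 and 13 against 48 and 57) rose with it. Cdkn1a, the inhibitor p21, went the other way, from 1345 and 1612 to 385 and 393 (log2 change -1.92, SE 0.26). Of 27 genes for G1 cyclins, CDK inhibitors and E2F factors 5 rose and 5 fell (median -0.14, and 0.88 with the Xist covariate). These are 18.5% each way, against 22.5% of all tested genes that rose and 13.4% that fell. With median-of-ratios scaling 5 of the list rose and 8 fell. Without Survivin-intact replicate 1, or without LOF replicate 2, 3 fell.

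Hedgehog pathway genes were higher in LOF at the level of receptors, transducers and targets. Of 14 genes for ligands, their release and receptors 9 rose and 0 fell (median 0.99), of 28 for transduction and Gli effectors 13 rose and 3 fell (0.41), and of 24 induced targets 10 rose and 3 fell (0.64). With the Xist covariate 5, 5 and 7 of them rose. Leaving out Survivin-intact replicate 2 left 8 transduction genes that rose, and leaving out LOF replicate 1 left 6 induced targets that rose. Smo, whose row cannot separate transcripts of the gene from those of the SmoM2 allele, stood at 8138 and 7306 in Survivin-intact cells and 9240 and 9355 in LOF and did not pass (log2 change 0.27, SE 0.11, adjusted p = 0.0806).

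On the receptor side, Hhip, which captures Hedgehog ligands, stood at 383 and 530 in Survivin-intact cells and 8169 and 10523 in LOF (log2 change 4.36, SE 0.44, adjusted p = 5.62e-05). Ptch1, the receptor that restrains Smoothened, stood at 15284 and 8556 and 36236 and 34645 (log2 change 1.63, SE 0.27), and the co-receptor Cdon at 399 and 396 and 2431 and 3346 (log2 change 2.84, SE 0.22). Disp1, which releases ligand from the cells that make it, rose as well (1.97). In all of these both LOF libraries were above both Survivin-intact libraries.

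Among effectors, the transcription factor Gli1 stood at 2921 and 2583 in Survivin-intact cells and 4829 and 4735 in LOF (log2 change 0.80, SE 0.11, adjusted p = 0.000345). Gli2 rose by less (0.62), and genes of the cilium, through which Gli proteins pass, rose too, such as Ift88 (0.81) and Tulp3 (0.93). Sufu, which binds and restrains Gli proteins, fell (log2 change -0.52, SE 0.13; call lost without Survivin-intact replicate 1, Survivin-intact replicate 2 or LOF replicate 2, -0.53 to -0.43, adjusted p 0.0569 to 0.0908). Targets were not uniform: Igfbp3 rose (3.02), while the forkhead gene Foxe1 fell from 703 and 372 to 23 and 10 (log2 change -4.98, SE 0.39, adjusted p = 1.46e-05). None of 27 promoters of the target list and none of 12 of the receptor list held GACCACCCA, the Gli consensus, on either strand, and 0.253% of all promoters in the table did. This says only that the letters are not in these windows.

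Ligands of the EGF family that keratinocytes secrete were much lower in LOF, apart from a few at low levels, and the receptor Egfr was not. Nrg1, a ligand of ErbB3 and ErbB4, stood at 3012 and 4920 in Survivin-intact cells and 105 and 145 in LOF (log2 change -4.95, SE 0.27, adjusted p = 2.54e-06). Tgfa, a ligand of the EGF receptor, stood at 2274 and 2015 and 216 and 235 (log2 change -3.24, SE 0.33, adjusted p = 5.70e-05), and Hbegf, another, at 903 and 1033 and 85 and 129 (log2 change -3.19, SE 0.37). In each, the higher LOF library was far below the lower Survivin-intact library. Epgn stood at 524 and 1023 and 8 and 23, and Areg at 504 and 848 and 0 and 5, so that LOF held Areg under the detection floor. The ligand gene Nrg4 rose (244 and 207 against 350 and 433), and Egfr itself rose slightly, from 8286 and 7291 to 9854 and 10771 (log2 change 0.41, SE 0.11; call lost without Survivin-intact replicate 2 or LOF replicate 2, 0.31 to 0.34, adjusted p 0.104 to 0.122). Of 17 genes of the family 6 fell and 5 rose (median -0.50; 5 fell with the Xist covariate). Without Survivin-intact replicate 2, or without LOF replicate 2, 2 rose.

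Genes that ERK signalling switches on fell with these ligands. Dusp6, the phosphatase that feeds back on ERK, stood at 7533 and 7185 in Survivin-intact cells and 729 and 1105 in LOF (log2 change -3.03, SE 0.28, adjusted p = 3.66e-05). Phlda1 stood at 2238 and 2343 and 340 and 242 (log2 change -2.99, SE 0.28, adjusted p = 3.66e-05), and the ETS factor Etv4 at 1059 and 971 and 479 and 451 (log2 change -1.12, SE 0.16). The LOF libraries were below the Survivin-intact libraries in each. Dusp4 (1.19) and Spred2 (0.87), which also restrain the pathway, rose, and Dusp1 did not pass (824 and 1227 against 816 and 1195). Of 25 genes in the list of MAPK feedback and ETS factors 11 fell and 2 rose (median -0.36), and 7 fell with the Xist covariate.

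Immediate early genes, which growth factors and also the dissociation of tissue induce, had 17 falls and 3 rises among 28 members (median -0.77), and 1 rose without any 1 of the 4 libraries. Egr1, a zinc finger factor, stood at 9358 and 8590 in Survivin-intact cells and 2956 and 4731 in LOF (log2 change -1.26, SE 0.24), and the kinase Sgk1 at 7851 and 8884 and 1044 and 1410 (log2 change -2.78, SE 0.48, adjusted p = 0.00146). Jun did not pass (-0.24). The part of cell handling in these values was not tested. In the AP-1 family Fosl1 fell from 848 and 1292 to 53 and 82 (log2 change -3.97, SE 0.40, adjusted p = 5.87e-05), and 6 of 18 members fell and 3 rose. Without Survivin-intact replicate 2, or without LOF replicate 1, 3 fell.

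**Figure D4:**
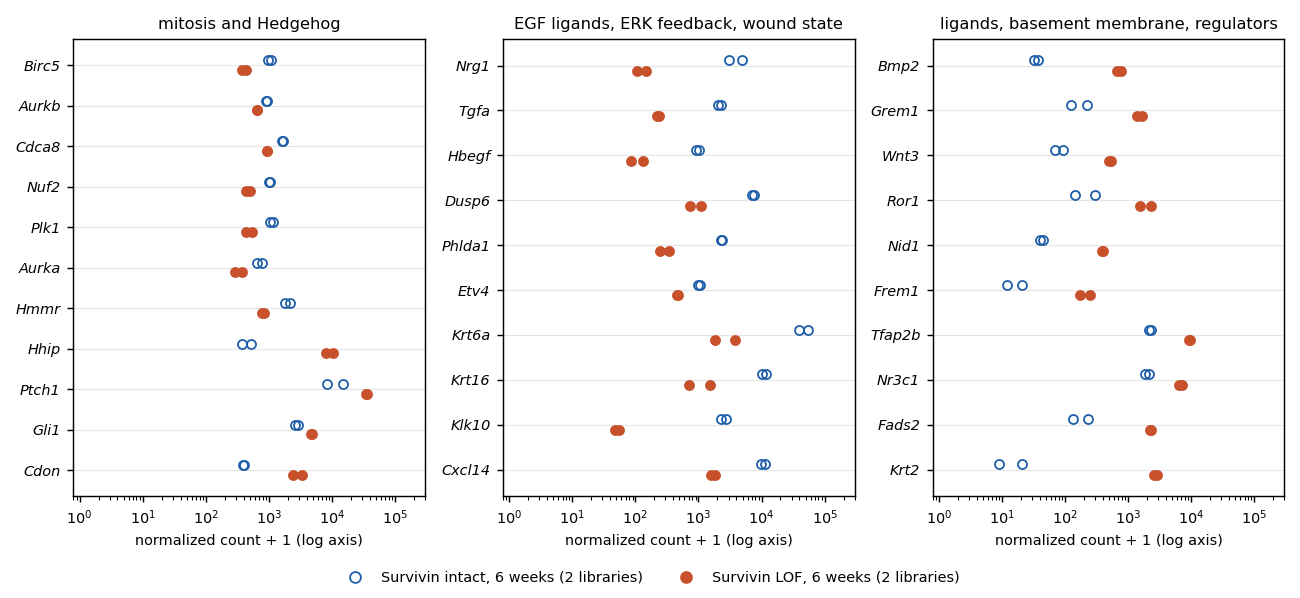
Normalized count plus 1 (log axis) of selected genes in the 2 Survivin-intact (open blue) and 2 LOF (filled orange) libraries at 6 weeks, 1 point a library. Within each gene shown the groups do not overlap, with Nrg1 at 3012 and 4920 against 105 and 145 and Bmp2 at 36 and 31 against 781 and 675.

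Keratinocyte genes of wounding and hyperproliferation had 23 falls and 3 rises among 36 members (median -1.19; -0.62 with 7 falls under the Xist covariate). Krt6a, which is induced when epidermis is injured, stood at 38838 and 53795 in Survivin-intact cells and 3806 and 1818 in LOF (log2 change -4.12, SE 0.28, adjusted p = 6.20e-06). Its near copy Krt6b can share reads with it. Gjb2, the gap junction protein connexin 26, stood at 5826 and 5599 and 605 and 521 (log2 change -3.34, SE 0.15, adjusted p = 1.31e-06). In both genes, both LOF values were far under both Survivin-intact values.

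Most tested genes of the outer epidermis fell, with a set of exceptions. Of 26 granular layer and cornified envelope genes 15 fell and 5 rose (median -2.29), and of 26 spinous genes 18 fell and 6 rose (-0.90). With the Xist covariate these medians were 0.21 and 0.46. Without LOF replicate 1, 3 cornified envelope genes rose, and without Survivin-intact replicate 1, 3 spinous genes rose. Tgm1, a transglutaminase that crosslinks the envelope, stood at 213 and 303 in Survivin-intact cells and 8 and 14 in LOF (log2 change -4.46, SE 0.36, adjusted p = 1.81e-05). Ppl, which encodes the envelope scaffold periplakin, stood at 4338 and 4424 and 10298 and 9797 (log2 change 1.20, SE 0.12, adjusted p = 5.47e-05), and the keratin gene Krt80 also rose (1.51). Lor, of the same list, rose (log2 change 1.76, and 1.02 to 2.51 with 1 library left out). Members of the same list thus moved apart. Summed over all listed granular and cornified envelope genes, tested or not, values did not fall. They were 23131 and 25781 in Survivin-intact cells and 30101 and 29443 in LOF. The spinous keratins differed as well: Krt2 rose from 20 and 8 to 2850 and 2598 (log2 change 7.63, SE 0.37, adjusted p = 1.42e-06), Krt10 from 2972 and 5741 to 9438 and 6692 (log2 change 0.94, SE 0.28), and Krt1 did not pass (4257 and 8034 against 5491 and 2835). Krt10 was less stable (call lost without Survivin-intact replicate 1 or LOF replicate 1, 0.47 to 0.70, adjusted p 0.16 to 0.184).

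The AP-1 letters TGANTCA, where N is any base, occurred on either strand in 12 of 23 promoters (52.2%) of the cornified envelope list and in 4 of 25 (16%) of the wound list, against 5.64% of promoters of tested genes, 8.14% of those that fell and 5.39% of those that rose. Windows of 3 envelope precursor genes of chromosome 3, picked after their values were seen, are written with the match in capitals: Sprr1b (chr3:92438730-92439029, minus strand), Sprr2h (chr3:92385435-92385734, plus strand) and Ivl (chr3:92573686-92573985, minus strand). They are shown because the match lies 111, 198 and 116 bases before the start.
Sprr1b: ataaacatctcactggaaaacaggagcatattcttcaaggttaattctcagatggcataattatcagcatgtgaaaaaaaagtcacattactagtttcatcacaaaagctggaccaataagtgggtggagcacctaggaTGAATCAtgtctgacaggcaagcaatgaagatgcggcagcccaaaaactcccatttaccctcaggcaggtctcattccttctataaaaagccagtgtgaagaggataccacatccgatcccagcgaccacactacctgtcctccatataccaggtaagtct
Sprr2h: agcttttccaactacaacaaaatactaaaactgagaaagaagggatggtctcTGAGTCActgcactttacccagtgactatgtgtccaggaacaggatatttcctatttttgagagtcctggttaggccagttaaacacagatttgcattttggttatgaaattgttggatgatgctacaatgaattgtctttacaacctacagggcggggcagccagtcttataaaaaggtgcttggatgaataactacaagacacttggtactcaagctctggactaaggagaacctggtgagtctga
Ivl: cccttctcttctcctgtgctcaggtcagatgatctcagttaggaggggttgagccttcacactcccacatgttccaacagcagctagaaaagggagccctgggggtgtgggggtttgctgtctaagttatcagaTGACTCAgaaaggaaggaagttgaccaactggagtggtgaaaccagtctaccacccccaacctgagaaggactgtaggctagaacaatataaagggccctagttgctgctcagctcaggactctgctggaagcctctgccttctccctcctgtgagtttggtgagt
Sprr1b stood at 662 and 1026 in Survivin-intact cells and 8 and 7 in LOF, and Sprr2h at 158 and 176 and 3 and 0. Ivl, which encodes involucrin, stood at 172 and 189 and 35 and 32 (log2 change -2.40, SE 0.36). The Sprr genes are near copies of each other and may share reads, and in LOF they lay about the detection floor.

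Kallikreins, the serine proteases that shed the outer skin, and enzymes of barrier lipids had 17 falls and 2 rises among 33 members (median -0.85). Klk10 stood at 2255 and 2764 in Survivin-intact cells and 53 and 46 in LOF (log2 change -5.63, SE 0.41, adjusted p = 9.05e-06), and Klk7 fell (-3.45). Elovl1, which makes very long chain fatty acids, fell (log2 change -1.36, SE 0.12), whereas the ceramide synthase Cers4 rose from 992 and 662 to 3016 and 5130 (2.28). Junction genes had 14 falls and 5 rises among 33 members: the desmosomal cadherin Dsg3 stood at 19272 and 21176 and 9735 and 8926 (log2 change -1.12, SE 0.10, adjusted p = 3.66e-05), and its relative Dsg1a at 5945 and 4946 and 16724 and 13490 (log2 change 1.47, SE 0.30). The differentiation cadherin Dsc1 fell as Dsg3 did (889 and 1297 against 283 and 233, log2 change -2.06, SE 0.20), and basal Dsc3 did not pass (0.20). Of the junction genes 2 rose without Survivin-intact replicate 2, 3 rose without LOF replicate 1 and 9 fell without Survivin-intact replicate 2 or LOF replicate 2.

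Several basement membrane genes rose, while some integrins fell. Of 38 genes for the basal layer 15 rose and 7 fell (median 0.26), and 9 rose without LOF replicate 2. The excess of rises depended on the scaling: 11 rose and 11 fell with median-of-ratios scaling (median 0.13). Nid1, the linker nidogen, stood at 39 and 44 in Survivin-intact cells and 397 and 384 in LOF (log2 change 3.21, SE 0.34, adjusted p = 7.35e-05). Frem1, a basement membrane protein of skin development, stood at 20 and 11 and 171 and 244 (log2 change 3.69, SE 0.35, adjusted p = 3.99e-05), and its partners Fras1 (2.06) and Frem2 (1.33) rose too. These proteins form one complex, and the 3 genes were higher in both LOF libraries. The hemidesmosome genes Dst (log2 change 0.87, SE 0.10, adjusted p = 0.000121) and Col17a1 (log2 change 0.72, SE 0.10) rose. Itgb6, an integrin subunit of wounded epithelium, fell from 3007 and 3221 to 967 and 979 (log2 change -1.68, SE 0.22), as did Itga3 (-1.13) and Cd44 (-0.91), while Itgb4 did not pass (-0.18).

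Secreted signals of the BMP, Wnt and FGF families changed in both directions. In the TGF-beta and BMP list 18 of 45 genes rose and 9 fell (median 0.29). Bmp2, a ligand of hair follicle formation, stood at 36 and 31 in Survivin-intact cells and 781 and 675 in LOF (log2 change 4.40, SE 0.31, adjusted p = 7.62e-06), and Bmp3 at 86 and 78 and 833 and 1842 (log2 change 3.90, SE 0.46). Grem1, an antagonist that binds BMP ligands, stood at 122 and 225 and 1661 and 1365 (log2 change 3.18, SE 0.36). Ligands and antagonist were thus higher in the same libraries. Tgfb3 rose (1.61) and the activin subunit Inhba fell from 364 and 468 to 53 and 46 (log2 change -3.04, SE 0.34). Id2 (1.58) and Id4 (1.88), which BMP signals induce in many cells, rose, and Id1 did not pass (-0.22).

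In the list of Wnt ligands, receptors and inhibitors 15 of 38 genes rose and 7 fell (median 0.16), and without LOF replicate 2, 9 rose. The ligand Wnt3 stood at 91 and 68 in Survivin-intact cells and 533 and 497 in LOF (log2 change 2.69, SE 0.35, adjusted p = 0.000255), whereas Wnt5a, a ligand of the non-canonical branch, stood at 973 and 979 and 303 and 260 (log2 change -1.79, SE 0.14). Ror1, a receptor for Wnt5a, stood at 294 and 140 and 1524 and 2262 (log2 change 3.19, SE 0.33). Ligand and receptor had opposite signs. Wif1, an inhibitor that traps Wnt ligands, fell from 2255 and 2464 to 50 and 46 (log2 change -5.59, SE 0.39, adjusted p = 7.89e-06). Of 17 genes that respond to Wnt 8 rose and 6 fell: Rnf43, a feedback inhibitor, rose modestly (log2 change 0.74, SE 0.10), Nkd1 rose (2.85) and Tnfrsf19 stood at 495 and 380 and 4165 and 2997 (log2 change 3.02, SE 0.37), while Tcf7 fell (-1.11).

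Notch genes had 10 rises and 3 falls among 24 members (median 0.25), and 9 rose and 6 fell with median-of-ratios scaling. In the same list 6 rose without Survivin-intact replicate 2 and 1 fell without Survivin-intact replicate 2 or LOF replicate 2. The ligand gene Jag2 (0.72) and the coactivator Maml2 (1.13) rose, Adam10, which cleaves Notch, fell (-0.81), and Hes1, a target of the pathway, did not pass (-0.31). In the FGF family Fgfr2, the receptor of keratinocytes, stood at 5699 and 4460 in Survivin-intact cells and 14475 and 15485 in LOF (log2 change 1.57, SE 0.13, adjusted p = 2.21e-05), and 7 of 16 members rose and 4 fell. Only 2 rose without Survivin-intact replicate 2 or without LOF replicate 2, and the median of 0.36 was -0.57 with the Xist covariate. Irs1, the adaptor of insulin and IGF receptors, stood at 1331 and 791 and 7869 and 6742 (log2 change 2.83, SE 0.23, adjusted p = 1.82e-05). Guidance molecules, which steer axons and also epithelial cells, had 15 rises and 11 falls among 47 members, and 7 fell without Survivin-intact replicate 1 or LOF replicate 2. Sema3d stood at 36 and 13 and 774 and 717 (log2 change 5.04, SE 0.48, adjusted p = 4.26e-05), Slit1, a repellent ligand, at 46 and 70 and 521 and 431 (log2 change 3.04, SE 0.34), and the ephrin receptor Ephb2 at 359 and 380 and 60 and 68 (log2 change -2.51, SE 0.33). Each of these families had members on both sides.

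Hair follicle genes divided in the same manner. Of 27 genes of embryonic follicle progenitors and tumours 9 rose (33.3%) and 6 fell (22.2%), with a median of 0.23. The adhesion gene Nrcam stood at 2764 and 2345 in Survivin-intact cells and 12671 and 13819 in LOF (log2 change 2.38, SE 0.23, adjusted p = 4.92e-05), and Edar, the ectodysplasin receptor of the hair placode, at 32 and 3 and 258 and 224 (log2 change 4.39, SE 0.71). Pthlh fell from 1400 and 2085 to 342 and 314 (log2 change -2.38, SE 0.22). Of 25 bulge and upper follicle genes 5 rose (20%) and 7 fell (28%), with a median of 0.04 (-0.61 with the Xist covariate). Over all tested genes 22.5% rose and 13.4% fell, so the rises of the bulge list were below that share. Krt79, a keratin of the infundibulum, stood at 21728 and 18152 and 7275 and 5049 (log2 change -1.71, SE 0.16), and Postn, a matrix protein gene of the list, at 9697 and 12711 and 26945 and 35465 (log2 change 1.48, SE 0.16). The infundibular keratin fell and Postn rose, each without overlap. Without LOF replicate 2, 2 bulge genes rose.

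Transcription factors of the epidermis split, 18 higher and 16 lower of 54 (median 0.18; -0.30 with the Xist covariate). Tfap2b stood at 2303 and 2157 in Survivin-intact cells and 9183 and 9594 in LOF (log2 change 2.07, SE 0.16, adjusted p = 1.40e-05), and Gata3, a factor of the follicle's inner root sheath, at 2816 and 2774 and 6886 and 7145 (log2 change 1.33, SE 0.13, adjusted p = 5.64e-05). The ETS factor Ehf, which acts in differentiating epithelium, stood at 2000 and 1695 and 325 and 465 (log2 change -2.24, SE 0.18, adjusted p = 1.46e-05). Grhl3, a factor of barrier formation, and Cebpb, a factor of keratinocyte differentiation and stress, fell as well (-2.73 and -1.88). Trp63, the master factor of stratified epithelia, stood at 31859 and 34933 and 22636 and 27389, a fall of 0.42 (call lost without Survivin-intact replicate 2 or LOF replicate 1, -0.36 to -0.28, adjusted p 0.124 to 0.149).

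Nuclear receptor, glucocorticoid target and clock genes had 22 rises and 3 falls among 36 members (median 0.86), but the median was -0.31 with the Xist covariate. Nr3c1, the glucocorticoid receptor, stood at 2160 and 1860 in Survivin-intact cells and 6294 and 7125 in LOF (log2 change 1.74, SE 0.13, adjusted p = 9.05e-06), and its target Tsc22d3 rose (1.98). Among clock genes, Hlf (287 and 176 against 1078 and 1290, log2 change 2.39, SE 0.20), Cry2 (1.69) and Per3 (1.31) rose, Bhlhe40, a repressor of the clock, fell (-1.53), and Arntl did not pass (-0.45).

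Several genes that handle vitamin A fell. Aldh1a3, which makes retinoic acid, stood at 1871 and 928 in Survivin-intact cells and 18 and 25 in LOF (log2 change -5.89, SE 0.43, adjusted p = 9.47e-06), and the retinoic acid carrier Crabp2 at 344 and 398 and 53 and 46 (log2 change -2.88, SE 0.25, adjusted p = 2.44e-05). Carrier and enzyme fell together, as did Cyp26b1 (-3.20), which degrades retinoic acid. Of 16 genes in the list 6 fell and 3 rose, and 0 rose without LOF replicate 2 and 1 rose without Survivin-intact replicate 1, Survivin-intact replicate 2 or LOF replicate 1.

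Several secreted immune signals were lower. Interleukin 1 family and related cytokine genes had 13 falls and 5 rises among 26 members (median -1.01), chemokine genes had 8 falls and 3 rises among 16 members (-1.80). Of the cytokine genes 2 rose without Survivin-intact replicate 2, LOF replicate 1 or LOF replicate 2. Neutrophil markers moved the same way: all 3 tested of 9 listed fell, among them S100a8, which keratinocytes can also express, from 2336 and 907 to 60 and 34 (log2 change -4.98, SE 0.57, adjusted p = 0.000117) and the receptor gene Cxcr2 from 51 and 42 to 0 and 3. The summed neutrophil list was 4659 and 1908 against 130 and 68, 4 of its genes were at 0 in all 4 libraries, and its part in the cytokine and chemokine results was not tested. Cxcl14, a chemokine of healthy epithelium, stood at 11438 and 9654 in Survivin-intact cells and 1584 and 1833 in LOF (log2 change -2.62, SE 0.27, adjusted p = 5.89e-05), and Il24 at 256 and 264 and 0 and 3, under the detection floor in LOF. Ackr3, a receptor that scavenges Cxcl12, rose from 638 and 334 to 3489 and 3373 (log2 change 2.89, SE 0.31). Il34 (2.21), a growth factor for Langerhans cells, also rose. The class I gene H2-D1 fell (log2 change -1.57, SE 0.33), H2-T23 rose (1.46) and B2m did not pass (-0.14). Interferon response genes rose in 4 of 21 cases, a share below the 22.5% of all tested genes, among them Ifit2 (22 and 21 against 77 and 106, log2 change 2.02, SE 0.39), and 2 rose without Survivin-intact replicate 2 or LOF replicate 2. Of the proteases and inhibitors of the matrix 13 of 35 fell (37.1%) and 7 rose (20%, below the 22.5% of all tested genes). Mmp13, a collagenase, stood at 653 and 693 and 35 and 48 (log2 change -4.00, SE 0.38). Adamts9, another protease, stood at 3101 and 2033 and 7419 and 7941 (log2 change 1.61, SE 0.30).

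Metabolic genes divided by pathway. Fatty acid synthesis and storage genes had 22 rises and 4 falls among 39 members (median 0.48). Elovl6, an elongase of saturated fatty acids, stood at 1044 and 1160 in Survivin-intact cells and 4775 and 6958 in LOF (log2 change 2.39, SE 0.16, adjusted p = 6.26e-06), and the desaturases Fads1 (581 and 427 against 2079 and 2354, log2 change 2.15, SE 0.19) and Scd1 (8140 and 7301 against 18065 and 30936, log2 change 1.62, SE 0.22) rose. The LOF libraries were higher throughout. The Scd1 change was -0.17 with the Xist covariate. Cholesterol synthesis did not follow: 5 of 28 genes rose and 7 fell (median -0.11; 0.89 with the Xist covariate), with Sqle (-1.23) and Lss (0.98), consecutive enzymes of the pathway, moving apart. In this list 5 rose and 12 fell with median-of-ratios scaling, and 4 fell without Survivin-intact replicate 2 or LOF replicate 2.

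Respiratory chain and citric acid cycle genes of the nucleus had 29 falls and 1 rise among 51 members (median -0.35). Cycs, cytochrome c, stood at 1199 and 1181 in Survivin-intact cells and 501 and 524 in LOF (log2 change -1.21, SE 0.16, adjusted p = 0.000292), and Ndufa4 at 1434 and 1431 and 766 and 641 (log2 change -1.03, SE 0.12, adjusted p = 0.000143). By limma 0 of 14 tested genes in a list of mitochondrially encoded genes changed, and mt-Co1 stood at 105521 and 95357 and 99914 and 93950. Of all 34 tested genes of the mitochondrial chromosome, however, 12 fell and 0 rose by limma (median -0.35). Leaving out Survivin-intact replicate 2 left 15 nuclear genes that fell, and leaving out LOF replicate 2 left 17. With the Xist covariate 0 fell and 0 rose, and Cycs stood at 0.01. Glycolysis and hypoxia genes split, 10 higher and 14 lower of 42 (median -0.03; 0.32 with the Xist covariate), with the hypoxia factor Hif1a lower (-0.97) and its relative Epas1 higher (607 and 336 against 2468 and 2911, log2 change 2.57, SE 0.25). Of these genes 6 rose and 15 fell with median-of-ratios scaling, and 6 rose without LOF replicate 2.

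Chaperones and the unfolded protein response were lower. Hspa5, the main chaperone of the endoplasmic reticulum, stood at 7682 and 8533 in Survivin-intact cells and 4639 and 4329 in LOF (log2 change -0.85, SE 0.10, adjusted p = 0.000171), and 13 of 24 genes of this response fell and 1 rose (median -0.53). Hsph1, a cytosolic cochaperone, stood at 2119 and 2604 and 642 and 524 (log2 change -2.02, SE 0.16, adjusted p = 1.40e-05), while the stress-induced Hspa1a rose (0.76). Of 21 cytosolic heat shock genes 10 fell and 6 rose, and 3 rose without Survivin-intact replicate 2. With the Xist covariate the medians of these lists were 0.05 and 0.10. In the Nrf2 and metallothionein list, 8 rose and 8 fell of 28 (median -0.22; 0.36 with the Xist covariate): Gpx2, a glutathione peroxidase, fell from 789 and 1333 to 28 and 32 (log2 change -5.05, SE 0.52) and Cat, catalase, rose from 2458 and 2433 to 5164 and 6485 (log2 change 1.24, SE 0.12, adjusted p = 4.77e-05). Ribosomal protein genes rose in 18 of 48 cases with a median of 0.18, close to that of all genes, and in 8 to 10 cases without any 1 of the 4 libraries. With median-of-ratios scaling 6 rose and 3 fell. Amino acid and peptide transporters had 9 rises and 4 falls among 26 members, and 1 fell without Survivin-intact replicate 1 and 2 fell without LOF replicate 2. The peptide transporter Slc15a2 stood at 41 and 16 and 2666 and 2938 (log2 change 6.71, SE 0.53, adjusted p = 1.40e-05) and the taurine transporter Slc6a6 at 9088 and 6650 and 23677 and 28846 (log2 change 1.75, SE 0.22).

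The apoptosis families, to which Survivin belongs by structure, changed in several members. Birc5 itself is not counted in the list of inhibitors and antagonists. Of 7 tested inhibitor of apoptosis genes and antagonists 4 rose and 1 fell, 2 rose and 2 fell with median-of-ratios scaling, and 2 rose without Survivin-intact replicate 1, Survivin-intact replicate 2 or LOF replicate 2. Birc2, the inhibitor cIAP1, stood at 514 and 553 in Survivin-intact cells and 1170 and 1229 in LOF (log2 change 1.17, SE 0.11, adjusted p = 3.21e-05), and Xiap rose less (log2 change 0.41, SE 0.13; call lost without Survivin-intact replicate 1, Survivin-intact replicate 2 or LOF replicate 2, 0.27 to 0.47, adjusted p 0.0589 to 0.227). Birc3, the inhibitor cIAP2, fell (log2 change -0.48, SE 0.15; call lost without any 1 of the 4 libraries, -0.57 to -0.39, adjusted p 0.0597 to 0.148). Birc2 and Xiap thus went the other way from Birc3 and Birc5. Also among the 4 that rose were the antagonists Xaf1 (3.43) and Diablo (0.36), which are not inhibitors of apoptosis. Bcl2, which protects mitochondria, rose (log2 change 1.02, SE 0.12), and Mcl1 did not pass (-0.17). Of 10 death members of the BCL2 family 4 fell and 1 rose (median -0.19; 0.12 with the Xist covariate; 2 fell without LOF replicate 2): Pmaip1, the protein Noxa, stood at 227 and 236 and 87 and 59 (log2 change -1.68, SE 0.24, adjusted p = 0.000455), and Bbc3, the protein Puma, at 34 and 29 and 112 and 102 (log2 change 1.74, SE 0.27, adjusted p = 0.000777). Bak1 fell (log2 change -1.03, SE 0.19). Ripk3, the kinase of necroptosis, stood at 421 and 538 and 77 and 57 (log2 change -2.83, SE 0.26, adjusted p = 3.63e-05), and Casp1, of inflammation, fell (-2.11). Casp2 rose slightly (log2 change 0.52, SE 0.11).

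Genes known to respond to p53 moved in both directions, 8 higher (29.6%) and 6 lower (22.2%) of 27. Over all tested genes the shares were 22.5% and 13.4%. The list median was -0.04, and 0.30 with the Xist covariate. Rrm2b, which supplies nucleotides for repair, stood at 287 and 256 in Survivin-intact cells and 761 and 823 in LOF (log2 change 1.54, SE 0.21, adjusted p = 0.000314), Trp53inp1 at 2458 and 2069 and 6266 and 7538 (log2 change 1.61, SE 0.22), and the damage sensor Xpc at 571 and 535 and 1430 and 1585 (log2 change 1.44, SE 0.12). Against these rises stood Cdkn1a (-1.92), Sfn (-1.69) and Aen (-0.94), which fell. Mdm2, the feedback target, did not pass (1288 and 1243 against 1123 and 1259). Without Survivin-intact replicate 2, LOF replicate 1 or LOF replicate 2, the number that rose was 5 in place of 8. Chromatin regulators of the Polycomb and DNA methylation list had 14 rises (35.9%) and 6 falls (15.4%) among 39 members. The falls were near the 13.4% of all tested genes. Ezh1 (0.88) and Pcgf2 (0.94) were higher, Jarid2 was lower (-0.93) and Ezh2 was not past the test (0.22). In this list 9 rose and 10 fell with median-of-ratios scaling, and 4 rose without Survivin-intact replicate 2, 5 rose without LOF replicate 2, 9 rose without LOF replicate 1 and 3 fell without Survivin-intact replicate 1 or Survivin-intact replicate 2.

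Some markers of other skin cells were higher in LOF. Of 12 tested melanocyte genes 11 rose, and Dct, an enzyme of melanin synthesis, stood at 137 and 143 in Survivin-intact cells and 669 and 654 in LOF (log2 change 2.23, SE 0.16, adjusted p = 7.68e-06). Of 9 Langerhans and dendritic cell genes 4 rose, with Cd74, the invariant chain, at 79 and 55 and 402 and 751 (log2 change 3.04, SE 0.39) and Cd207, langerin, at 0 and 6 and 25 and 55 (call lost without LOF replicate 2, 3.30, adjusted p = 0.0672). Of 12 fibroblast genes 4 rose (33.3%, against 22.5% of all tested genes). Dcn, decorin, stood at 2205 and 1163 and 17993 and 18053 (log2 change 3.49, SE 0.38, limma adjusted p = 9.42e-05). Col1a1 (218 and 75 against 117 and 93) and Col3a1 (103 and 24 against 30 and 21), collagens of fibroblasts, did not pass. The collagen gene Col1a2 rose (137 and 19 against 647 and 1006, log2 change 3.94, SE 0.67). Of 5 tested T cell genes 1 rose and 1 fell (20% each). Trac stood at 86 and 117 and 53 and 32 and did not pass (log2 change -1.26). No mast cell gene passed the filter on low values. Summed over all listed markers in the table, tested or not, melanocyte values were 1056 and 960 in Survivin-intact cells and 3785 and 3497 in LOF, and Langerhans and dendritic values 889 and 648 and 1177 and 2087. In bulk libraries more cells of a type and more RNA per cell cannot be told apart. The part of other cells in the cytokine, class I and basement membrane results was not tested.

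Among the 15 largest rises were Npy1r (0 and 6 against 357 and 503), a neuropeptide receptor, Krt36 (5 and 0 against 491 and 165), a hair keratin, and Pde11a (5 and 3 against 298 and 393), a phosphodiesterase. Among the 15 largest falls were Cdhr1 (2769 and 2309 against 18 and 12), a cadherin-related gene, and Kcnn4 (149 and 135 against 0 and 0), a potassium channel. The LOF libraries differed most from each other, among changed genes with a mean of at least 500, in BC117090 (144 and 32 against 1257 and 1103 in Survivin-intact cells), Prss22 (77 and 305 against 2234 and 2759) and Ptprv (107 and 384 against 3043 and 3482). In these genes LOF stayed below the Survivin-intact libraries all the same. Among autosomes the share of tested genes that changed ran from 31.8% on chromosome 7 to 41.6% on chromosome 13. It was 39.2% on the X, 35.3% on the mitochondrial chromosome and 0 of 7 genes on the Y by limma.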

How the data were processed

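RNA was polyA RNA of sorted cells, made into libraries with the Ovation Solo RNA-seq system, per the labels' protocols. Reads were aligned with STAR and counted with HTSeq on GRCm38 (mm10), per the submitters' processing notes, with no version given in the sources used here. Whether counting used strand is likewise not given, so overlapping and antisense genes such as Xist and Tsix, and near copies such as ribosomal protein, Sprr, Klk and Krt6 genes, are uncertain.

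The deposited table holds 1 score per gene and library, called here a normalized count. Read from the file, the authors had scaled each library to a common total (column sums 20011195 to 20014054) and rounded the values up; 99.3% to 99.9% of them are whole multiples of 1 read's value, within that rounding. Reads behind the libraries numbered 7693183 to 8870758 over the 10 libraries. Such values are not counts, so the test was limma 3.58.1 (R 4.3.3) with an intensity trend on log2(value + 1). All 10 libraries were fitted as 5 groups, with 5 residual degrees of freedom, for the contrast LOF minus Survivin-intact at 6 weeks over 19096 genes, and p-values were adjusted by Benjamini-Hochberg with a threshold of 0.05.

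On data simulated for this comparison (18804 genes), 64 of 98 genes changed 2-fold, 92 of 102 changed 4-fold and 17 of 18604 unchanged genes were called. The share of false calls when 35.9% of genes are called, as here, was not tested. Genes were described by 76 lists without a test of any list. The comparison and the lists were chosen with earlier results of these data known. Genes named are Birc5, Smo, Ptch1, Gli1, Krt14, Krt10, Xist and Ddx3y, up to 5 changed members of each list in each direction by adjusted p, the 2 highest members of each list, the 15 largest rises and falls, the 5 largest gaps between LOF libraries and the 3 nearest genes on either side of Birc5; other list members appear as values, and some genes are not reported here. Alternatives were the pseudocount, filter, scaling, model, Xist covariate, replicate block and leaving out libraries.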

Additional observations from a re-analysis of the deposited data

How the results depend on the processing

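The number of changed genes (6854) stayed between 5687 and 8596 when the pseudocount was 0.5 or 5, the filter was dropped or raised to 50, all 10 libraries set the filter, values were rescaled or quantile normalized, only the 4 libraries or all but the Survivin gain libraries were fitted, the intensity trend was dropped, a robust fit was used, X and Y genes were left out, or voom was run on the recovered reads (6636). An adjusted p of 0.01 left 3955 (2442 higher, 1513 lower), and a log2 change of at least 1 left 3307 (2238 higher, 1069 lower). Leaving out the 2 gain libraries gave 8596 changed, 5315 higher and 3281 lower genes. Leaving out 1 of the 4 libraries gave 3879 to 5295 changed, 2385 to 3520 higher and 1486 to 1927 lower genes. The median log2 change of 0.15 became 0.18 without a filter, 0.11 with the filter at 50, 0.011 with median-of-ratios scaling, -0.0037 with quantile normalization and 0.10 to 0.17 without 1 library. Replicate numbers did not pair the libraries (correlation of the replicates' deviations -0.060); with the replicate block 6747 genes changed, 6576 of them among the 6854. edgeR and DESeq2 were not run, because the table holds no counts.

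With the Xist covariate 1054 genes changed (669 higher, 385 lower, median 0.29). The slope of that fit rests on Xist differences within groups, largest in the Survivin-GOF pair. Of 210 genes named in the text, that fit reversed 35: Cycs (0.014), Scd1 (-0.17), Afmid (-2.36), Aspm (0.48), B2m (3.28), Bak1 (0.47), Cd44 (0.71), Cry2 (-1.74), Ddx3y (3.52), Dusp4 (-0.11), Eif2s3y (3.23), Ezh1 (-0.46), Grhl3 (1.76), H2-D1 (0.60), Hes1 (0.33), Hjurp (-0.17), Itgb6 (0.053), Jag2 (-0.12), Kdm5d (3.996), Kif20a (0.10), Krt1 (2.10), Krt14 (0.98), Krt5 (1.93), Nrg4 (-0.053), Plk1 (0.79), Sfn (0.31), Slc6a6 (-0.56), Sqle (1.05), Sufu (0.24), Trac (6.00), Trp53inp1 (-0.63), Trp63 (0.025), Tsc22d3 (-1.96), Uty (3.51), mt-Co1 (0.15). It also left 96 with their sign but past the threshold no longer. Quantile normalization reversed mt-Co1 (0.094). Leaving out 1 of the 4 libraries took Col1a1 from -1.06 to 0.47, Col3a1 from -1.99 to 0.063, mt-Co1 from -0.12 to 0.023, B2m from -0.33 to 0.043, Dusp1 from -0.31 to 0.26 and Krt5 from -0.28 to 0.016; the upper value belonged to Survivin-intact replicate 1 for Col1a1, Col3a1 and mt-Co1, to replicate 2 for Dusp1 (0.25 without LOF replicate 1), to LOF replicate 1 for B2m (0.038 without Survivin-intact replicate 2) and to LOF replicate 2 for Krt5, and none of these 6 genes passed with all libraries. The cause of these reversals was not tested. At this depth genes under about 7 normalized counts are not told from 0.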
